A study of Mus musculus with 8 samples.

Results

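The genes described here make fatty acids and build them into glycerolipids and phospholipids. They were chosen by name, and the choice was made with earlier results of these data known. Of 43 listed genes, 41 had a row among the 16279 genes of the input RNA table, and Lpcat2 and Cds1 were not analysed here. All 41 had an adjusted p and a mean normalized count of at least 130.2. Of the 2114 differential m6A peaks, 10 carried the name of a listed gene, on 8 genes. N2a cells, a mouse neuroblastoma line, received either a small interfering RNA against Emg1, the gene of an 18S ribosomal RNA methyltransferase, or a control small interfering RNA, and were harvested 48 h afterwards. Poly(A) RNA was sequenced as input and after pull-down with an antibody against N6-methyladenosine (m6A), a methyl mark on adenosines of mRNA, with 2 libraries in each of the 4 groups. All comes from 1 cell line after a transient knockdown, with the number of different small interfering RNAs not stated. Nothing says that the libraries of a group were separate cultures, so p-values may measure technical spread only.

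Cytosolic acetyl-CoA, made from citrate by Acly or from acetate by Acss2, is carboxylated by Acaca and lengthened to palmitate by Fasn with NADPH, part of which Me1 supplies. Elovl enzymes lengthen the product, Scd and Fads enzymes put in double bonds, and Acsl enzymes couple fatty acids to coenzyme A. Gpam, Agpat, lipin and Dgat enzymes then build phosphatidic acid, diacylglycerol and triacylglycerol, while Chk, Pcyt, Cept1 and Cds enzymes lead to phospholipids, whose acyl chains Lpcat enzymes exchange. SREBP-1, the product of Srebf1, activates many genes of this path, and PPAR-gamma, the product of Pparg, is a lipid-sensing nuclear receptor best known from fat cells. Neural cells need long and unsaturated acyl chains for their large membranes.

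Values per library are not in the tables used here, so each gene is given by the log2 fold change and standard error (SE) of the authors' fit, and depth per library is unknown. The table names no direction. The authors' deposited table has Emg1 at -1.73 ± 0.11 (log2, SE), and fold changes are therefore read as knockdown over control, which puts Emg1 at 30.2% of control. Among markers of sympathoadrenal neuroblasts, Hand2, Tubb3 and Stmn2 had mean counts of 10441, 21840 and 13352. The authors' deposited table has Hand2 higher by 0.22 ± 0.06 (adjusted p = 0.00219) and Stmn2 at -0.65 ± 0.06 (adjusted p = 6.06e-24), and their part in the members' values was not tested. Of the markers of fat cells and of liver cells, 1 of 6 and 1 of 4 were matched, with mean counts of 2.52 (Plin1) and 9.97 (Serpina1a). Among markers of fibroblasts, leukocytes and glia, those with a mean of at least 100 were 1 of 6 (Pdgfra), 0 of 5 and 1 of 5 (Mbp).

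Falls outnumbered rises. At an adjusted p under 0.05, 15 of the 41 genes fell (36.6%) and 2 rose (4.88%), whereas of all 12807 genes with an adjusted p 15.5% fell and 17.1% rose. All 41 genes reach a mean of 100, and above that mean the background was 17.1% for falls and 19.4% for rises. Falls of at least 0.5 on the log2 scale were seen in 8 members (19.5%) and in 5.75% of all genes tested. The median log2 fold change was -0.13 over the 41 genes and -0.0023 over all 12807. Because the genes were chosen with earlier results known, these shares are a description and no test. Desaturation and phospholipid remodelling had the highest shares of falling members, 4 of 5 and 2 of 3, and the enzymes of phospholipid head groups had 0 of 6. Fatty acid enzymes (synthesis, desaturation, elongation and activation together) counted 8 falls and 1 rise among 19 genes, and phospholipid enzymes (remodelling and head groups) 2 falls and 0 rises among 9. No test was made between these groups. A smaller amount of lipid-synthesizing transcript per cell and a change in the mix of cells cannot be told apart in bulk RNA.

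**Figure D1:**
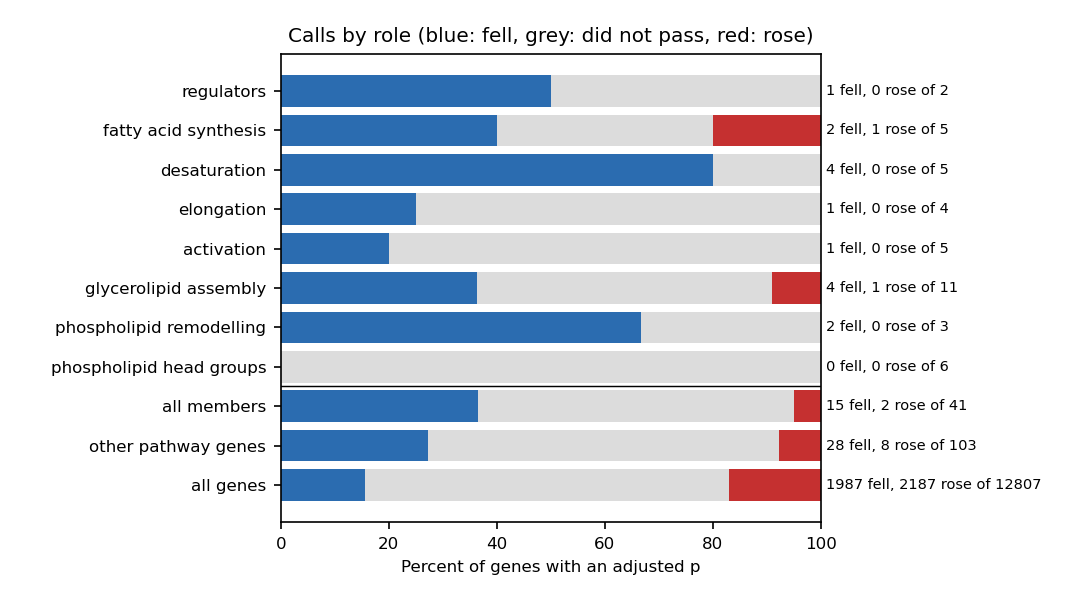
Percent of genes with an adjusted p that fell (blue), did not pass (grey) or rose (red) in input RNA, for each role, all 41 members, 103 other genes of lipid metabolism and all 12807 genes. Desaturation (4 of 5) and phospholipid remodelling (2 of 3) hold the highest falling shares, and no head group gene passed.

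**Figure D2:**
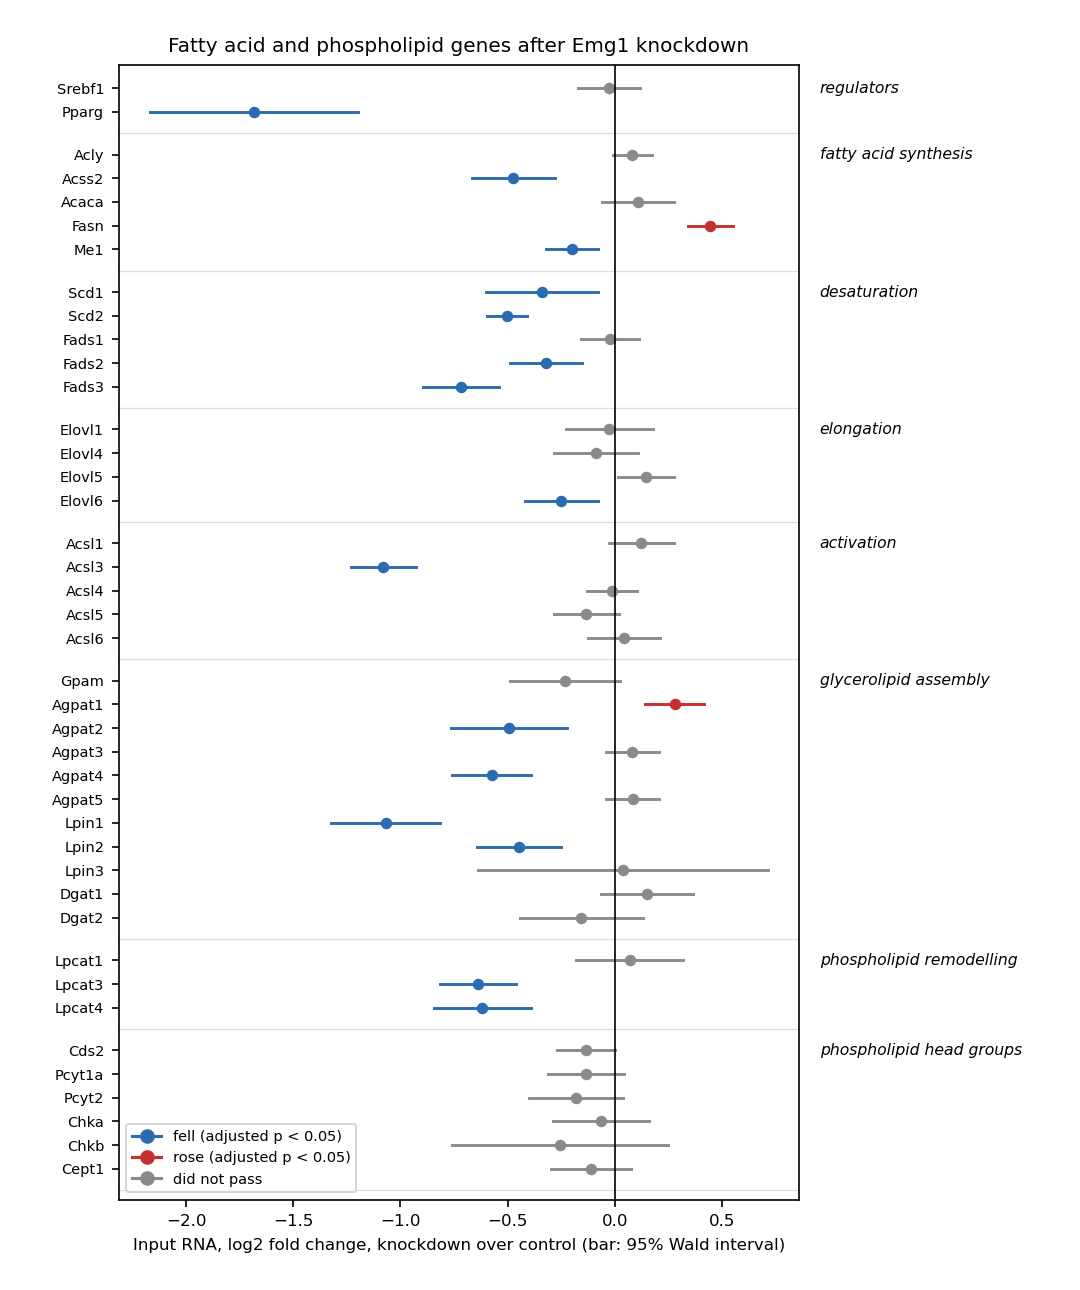
Log2 fold change of each member in input RNA, knockdown over control, with its 95% Wald interval (estimate and interval from the authors' fold change and SE), ordered by role and coloured by call. Pparg, Acsl3 and Lpin1 lie furthest to the left, and Fasn and Agpat1 are the only members called to the right of 0.

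The 2 regulators differed. The authors' deposited table gives Srebf1 as -0.03 ± 0.07 with an adjusted p of 0.825, and its 95% interval, 88.9% to 108% of control, leaves room only for small changes of the transcript. Pparg had the lowest value of all members, -1.68 ± 0.25 with an adjusted p of 3.36e-10 in the authors' deposited table, or 31.1% of control (95% interval 22.2% to 43.6%). Its mean count was 234, and its place was 28 from the lowest fold change among the 12807 genes. SREBP-1 is activated by cleavage, which transcript levels do not show. The span of Srebf1 overlaps that of Rai1 by 114 bases, and the authors' deposited table has Rai1 higher by 0.39 ± 0.08.

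The enzymes of fatty acid synthesis went both ways. Fasn, the multidomain synthase that makes palmitate, rose by 0.45 ± 0.05 (adjusted p = 2.15e-15) in the authors' deposited table, which is 136% of control (127% to 146%). It ranked 200 by p among all genes tested, with a mean count of 14160. Acly and Acaca, the steps just before it, did not pass, at 0.08 ± 0.05 and 0.11 ± 0.09 in the authors' deposited table (adjusted p = 0.176 and 0.358). Acss2, the enzyme that makes acetyl-CoA from acetate, fell by 0.47 ± 0.10 (adjusted p = 1.58e-05), and Me1, malic enzyme, fell by 0.20 ± 0.06 (adjusted p = 0.00587) in the authors' deposited table. The log2 fold change of Fasn exceeded that of Acss2 by 0.92 (95% interval 0.70 to 1.14) and that of Srebf1 by 0.47 (0.30 to 0.65), if the estimates are taken as independent. Fasn and Acss2 thus moved in opposite directions, and the interval of Acaca, which acts between them, ran from 95.9% to 121% of control.

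Desaturase genes had the highest share of falls among the roles, 4 of 5. Scd2, a delta-9 desaturase that is abundant in brain, fell by 0.50 ± 0.05 (adjusted p = 8.18e-24) in the authors' deposited table, or 70.6% of control, and ranked 83 by p. Its mean count of 36940 was the highest among the members. Scd1, the better known liver and fat isoform, fell by 0.34 ± 0.13 with an adjusted p of 0.0369 in the authors' deposited table, and the difference between the 2 genes had an interval that spans 0 (-0.11 to 0.44). The sequences of Scd1 and Scd2 are similar, and the treatment of reads that match both is not stated. Fasn exceeded Scd2 by 0.95 (0.81 to 1.09, log2), so the synthase and the main desaturase transcript parted.

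The 3 Fads genes lie near each other on mouse chromosome 19 and did not move alike. Fads3 and Fads2 are neighbours, and Fads2 and Fads1 are 81373 bases apart with 1 other gene between them. Fads3 (10040855 to 10060113, mm10) had the steepest fall of the role, 0.72 ± 0.09 (adjusted p = 1.37e-13) in the authors' deposited table. Its neighbour Fads2 (10062765 to 10101503), the delta-6 desaturase that opens the path to polyunsaturated chains, begins 2651 bases further on and fell by 0.32 ± 0.09 (adjusted p = 0.00122) in the authors' deposited table. For Fads1 (10182877 to 10196874), the delta-5 desaturase, the authors' deposited table gives -0.02 ± 0.07, which did not pass (adjusted p = 0.853). All 3 pairwise differences had 95% intervals without 0: Fads1 lay above Fads2 by 0.30 (0.08 to 0.51) and above Fads3 by 0.70 (0.47 to 0.92), and Fads2 above Fads3 by 0.40 (0.15 to 0.64). The order of these 3 genes along the chromosome was also the order of their fold changes. The gene between Fads2 and Fads1 was left out of this order, and a link to position was not tested.

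Of the 4 elongase genes, Elovl6 alone passed. Elovl6, which lengthens palmitate to stearate, fell by 0.25 ± 0.09 (adjusted p = 0.0158) in the authors' deposited table, and this call was lost at an adjusted p under 0.01. Elovl5, which lengthens polyunsaturated chains, had 0.14 ± 0.07 with an adjusted p of 0.0858 in the authors' deposited table, and lay above Elovl6 by 0.39 (0.18 to 0.61). Elovl1 and Elovl4, which act on very long chains, were at -0.03 ± 0.10 and -0.09 ± 0.10 in the authors' deposited table (adjusted p = 0.882 and 0.551).

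Among the acyl-CoA synthetases a single gene accounted for the calls. Acsl3, found on the endoplasmic reticulum and on lipid droplets, fell by 1.08 ± 0.08 (adjusted p = 7.59e-42) in the authors' deposited table, or 47.3% of control (42.6% to 52.5%), and ranked 22 of 12807 by p. Acsl4, which prefers arachidonate and had the highest mean count of the role (11626), had -0.01 ± 0.06 with an adjusted p of 0.893 in the authors' deposited table. Acsl1, Acsl5 and Acsl6 lay between -0.13 and 0.12 and did not pass (adjusted p from 0.181 to 0.756). The 4 differences between Acsl3 and its relatives ran from 0.95 to 1.20 in size, and all 4 of their intervals left out 0. Of the 6 differences among the other synthetases, 1 interval left out 0, that of Acsl1 minus Acsl5 (0.04 to 0.47). The retrogene Utp14b lies within the Acsl3 span and shares its start, over 9777 bases, and it fell by 0.38 ± 0.15 (adjusted p = 0.0293) in the authors' deposited table. Its part in the Acsl3 value was not tested.

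Glycerolipid assembly held 4 falls, 1 rise and 6 genes that did not pass. Lpin1, a phosphatidate phosphatase that also serves as a transcriptional coactivator, fell by 1.07 ± 0.13 (adjusted p = 1.11e-14) in the authors' deposited table, or 47.7% of control. Lpin2 fell by 0.45 ± 0.10 (adjusted p = 7.41e-05) in the authors' deposited table, less than Lpin1 by 0.62 (0.30 to 0.94). Lpin3 was scarce, with a mean count of 130.2, and its interval of -0.64 to 0.72 leaves both a fall like that of Lpin2 and a rise possible.

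The acyltransferases that turn lysophosphatidic acid into phosphatidic acid split by isoform. Agpat2 and Agpat4 fell by 0.49 ± 0.14 and 0.57 ± 0.09, and Agpat1 rose by 0.28 ± 0.07 in the authors' deposited table (adjusted p = 0.00198, 2.52e-08 and 0.00051). Agpat3 and Agpat5 were both at 0.08 ± 0.06 and did not pass in the authors' deposited table (adjusted p = 0.346 and 0.333). Agpat1 lay above Agpat4 by 0.85 (0.62 to 1.08) and above Agpat2 by 0.77 (0.47 to 1.08). Gpam, the mitochondrial enzyme of the first acylation, was at -0.23 ± 0.13, and the triacylglycerol enzymes Dgat1 and Dgat2 were at 0.15 ± 0.11 and -0.16 ± 0.15 in the authors' deposited table, with adjusted p of 0.172, 0.31 and 0.453. Over all enzyme families, 21 of 39 pairs of relatives had a difference whose unadjusted 95% interval left out 0. In the Agpat family these were 8 of 10 pairs. Pairs of a family share genes, and the share among pairs of unrelated genes was not computed. Whether relatives differ more often than other genes was therefore not tested.

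**Figure D3:**
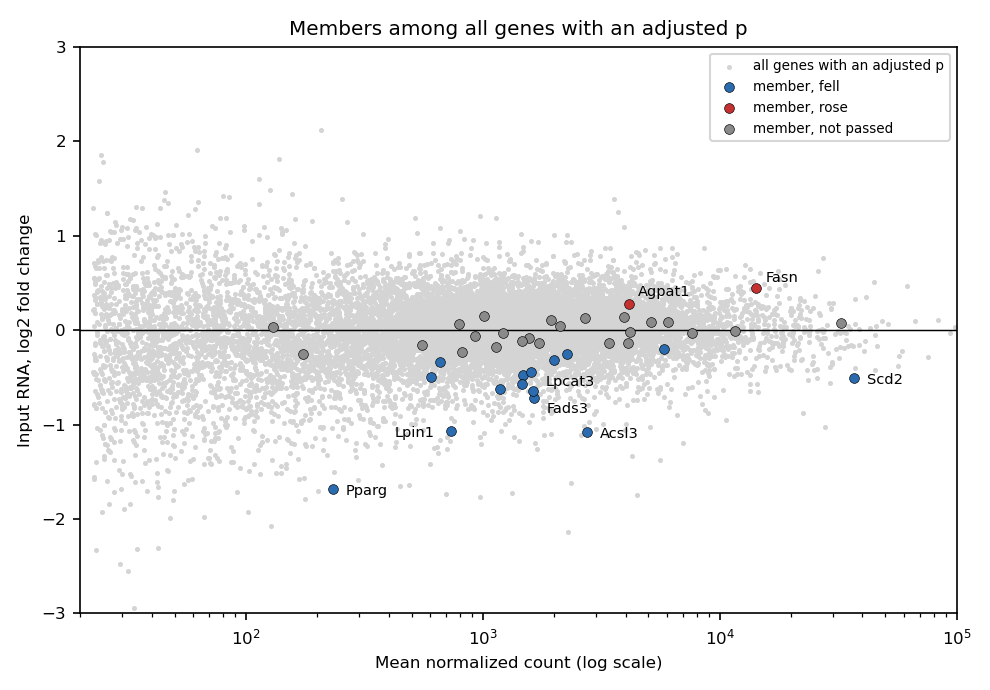
Input RNA log2 fold change against mean normalized count (log scale) for all genes with an adjusted p (grey, with 6 genes beyond 100000 outside the plot) and for the 41 members. The falling members span low (Pparg, 234) to very high means (Scd2, 36940), and Fasn is the highest of the members that rose.

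Phospholipid remodelling fell in 2 of 3 genes. Lpcat3, which places polyunsaturated chains into phosphatidylcholine, fell by 0.64 ± 0.09 (adjusted p = 6.58e-11), and Lpcat4 fell by 0.62 ± 0.12 (adjusted p = 1.19e-06) in the authors' deposited table. Lpcat1, known for saturated chains and lung surfactant, had 0.07 ± 0.13 with an adjusted p of 0.729 in the authors' deposited table. It lay above Lpcat3 by 0.71 (0.40 to 1.01).

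Lpcat3 overlaps the knocked-down gene. On chromosome 6 (mm10) Lpcat3 spans 124663094 to 124704716 and Emg1 124704370 to 124712186, so that the RefSeq spans share 347 bases at the 3′ end of Lpcat3. The library kit keeps strand, but it is not stated whether the counting used it, and the part of shared reads in the fall of Lpcat3 was not tested. Lpcat3 had a mean count of 1633 and Emg1 of 1321, and the fold change of Lpcat3 was smaller in size than that of Emg1 by 1.09 (0.81 to 1.36, log2). Without Lpcat3, 14 of 40 members fell and 2 rose. Without the 9 tested members whose span overlaps any other protein-coding gene, 11 of 32 fell and 1, Fasn, rose.

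None of the 6 measured head group genes passed in input, although all 6 values were below 0. Cds2, which makes CDP-diacylglycerol for phosphatidylinositol and cardiolipin, had -0.13 ± 0.07 with an adjusted p of 0.122 in the authors' deposited table. Pcyt1a and Pcyt2, the rate-limiting enzymes of phosphatidylcholine and phosphatidylethanolamine synthesis, were at -0.13 ± 0.09 and -0.18 ± 0.11 in the authors' deposited table (adjusted p = 0.268 and 0.221). The choline kinases Chka and Chkb were at -0.07 ± 0.11 and -0.26 ± 0.26, and Cept1, which completes both phospholipids, was at -0.11 ± 0.09 in the authors' deposited table (adjusted p = 0.719, 0.493 and 0.396). Apart from the scarce Chkb (mean count 174), the lower bounds of the intervals lay between 75.9% and 83.0% of control, so larger falls lie outside them.

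Other genes of lipid metabolism, 117 in 4 lists, had 103 members with an adjusted p, of which 28 fell (27.2%) and 8 rose (7.77%). Of all 12807 genes, 15.5% fell and 17.1% rose. These lists too were chosen with earlier results known. Among SREBP and lipogenic regulators 4 of 19 fell (21.1%) and 2 rose (10.5%). Insig1 and Insig2, which hold the SREBP complex in the endoplasmic reticulum, fell by 0.64 ± 0.10 and 0.60 ± 0.10 (adjusted p = 1.94e-09 and 1.29e-08), Srebf2 fell by 0.28 ± 0.07 (adjusted p = 0.000178), and Scap, the SREBP escort, rose by 0.33 ± 0.08 (adjusted p = 0.000269) in the authors' deposited table. In the list of synthesis partners 9 of 29 fell (31.0%) and 0 rose. Idh1, a cytosolic source of NADPH, fell by 1.02 ± 0.08 (adjusted p = 2.62e-34), Hsd17b12, a reductase of the elongation cycle, fell by 0.62 ± 0.06 (adjusted p = 5.07e-23), Mdh1 fell by 0.39 ± 0.05 (adjusted p = 1.21e-13) and Slc25a1, the citrate carrier, fell by 0.42 ± 0.08 (adjusted p = 1.62e-06) in the authors' deposited table.

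Among further glycerolipid and phospholipid enzymes 8 of 33 fell (24.2%) and 3 rose (9.09%). Mogat2 fell by 1.06 ± 0.15, Gpat3 fell by 1.23 ± 0.20, the ethanolamine kinase gene Etnk2 fell by 1.46 ± 0.28, and Lpgat1 rose by 0.37 ± 0.06 in the authors' deposited table (adjusted p = 1.22e-11, 2.11e-08, 2.36e-06 and 1.22e-07). In fatty acid oxidation, the opposing pathway, 7 of 22 fell (31.8%) and 3 rose (13.6%). Acads and Echs1 fell by 0.53 ± 0.09 and 0.44 ± 0.08 (adjusted p = 4.41e-07 and 2.63e-06), as did Eci2 by 0.28 ± 0.10 (adjusted p = 0.0256), and Cpt1a, which admits fatty acids to mitochondria, rose by 0.28 ± 0.08 (adjusted p = 0.00251) in the authors' deposited table.

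Promoters of members were searched for 3 motifs, in RefSeq windows (GRCm38.p6) from 250 bases before to 50 after an annotated start. Windows were matched for 36 of the 43 listed genes. The sterol regulatory element was written as TCACNCCAC, the E-box as CACGTG and the CCAAT box, bound by NF-Y, as CCAAT, each on both strands. The sterol regulatory element occurred in 2 members, Pcyt1a and Acsl1 (5.56%, against 1.42% of 9631 tested genes with a window). It occurred in 0 of the 13 fallen members with a window. At a background of 1.42% so few genes would rarely hold a match, and only this 1 pattern was searched. The 0 therefore does not tell whether fallen members lack such elements. The E-box was found in 4 members (11.1% against 11.7%). The CCAAT box was found in 24 members (66.7% against 43.5%), in 8 of the 13 that fell and 16 of the other 23. These 24 and the other 23 include Lpcat2, which had no input value, whereas the background holds tested genes only. Members had more windows per gene than tested genes, 1.53 against 1.28, and per window the CCAAT share was 50.9% against 38.1%. A match is a description of these letters and says nothing of binding.

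The stretches upstream of the start are shown for the gene that rose most, Fasn, for 3 genes that fell and hold a CCAAT box, and for both genes with a sterol regulatory element. Each runs 5′ to 3′ on the gene's strand and ends just before an annotated transcript start, which for Fasn, Fads3, Lpcat3 and Acsl1 lies inside the gene span. Capitals mark matches to the CCAAT box (ATTGG when on the other strand) or to the sterol regulatory element (in Acsl1 on the other strand), and the coordinates follow in the same order.
Fasn: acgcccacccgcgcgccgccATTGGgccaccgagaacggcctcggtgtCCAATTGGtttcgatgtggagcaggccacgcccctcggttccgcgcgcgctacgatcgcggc
Acss2: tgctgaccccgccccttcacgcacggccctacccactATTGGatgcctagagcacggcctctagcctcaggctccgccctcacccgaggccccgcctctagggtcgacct
Fads3: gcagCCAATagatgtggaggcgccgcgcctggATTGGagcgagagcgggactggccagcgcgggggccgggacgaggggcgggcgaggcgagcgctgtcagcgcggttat
Lpcat3: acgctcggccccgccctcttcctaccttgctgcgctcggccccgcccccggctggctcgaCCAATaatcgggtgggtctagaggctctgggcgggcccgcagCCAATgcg
Acsl1: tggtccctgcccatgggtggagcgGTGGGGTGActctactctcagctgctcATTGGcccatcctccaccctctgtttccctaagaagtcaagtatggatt
Pcyt1a: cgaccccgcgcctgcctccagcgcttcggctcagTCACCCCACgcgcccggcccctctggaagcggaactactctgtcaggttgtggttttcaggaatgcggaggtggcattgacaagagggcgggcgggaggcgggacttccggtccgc

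These stretches lie at chr11:120824548-120824657 (minus strand), chr2:155517933-155518042, chr19:10041438-10041547, chr6:124662994-124663103, chr8:46490866-46490965 and chr16:32430771-32430920 (all plus strand). The rising Fasn has 3 matches to the CCAAT box, of which 2 overlap in the run CCAATTGG, and the falling Acss2 has 1. The Acsl1 and Pcyt1a genes, which hold the sterol regulatory element, did not pass in input, at 0.12 ± 0.08 and -0.13 ± 0.09 in the authors' deposited table. The Acsl1 stretch belongs to the downstream one of its 2 annotated starts.

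**Figure D4:**
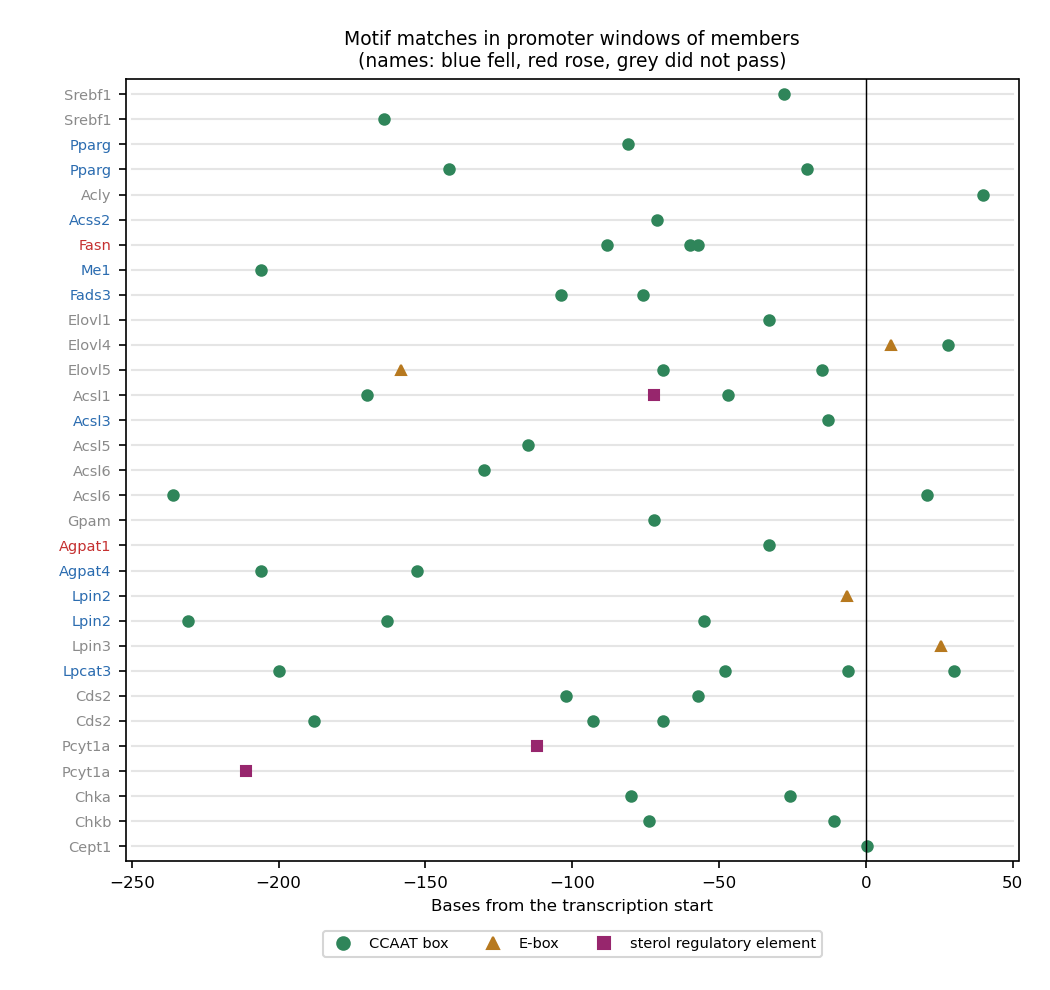
Position of each motif match, in bases from the annotated start, in the 31 windows of 25 measured members that hold a match (a gene with several starts has several rows). CCAAT boxes occur in windows of genes that fell (blue), rose (red) and did not pass (grey), and the sterol regulatory element is seen in windows of Acsl1 and Pcyt1a.

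Differential m6A peaks lay on 8 of the 41 members, 19.5%, where 14.8% of all tested genes, and 16.9% of those with a mean of at least 100, carried one. The peak list gives for each peak the fold enrichment of pull-down over input and a log2 change between conditions, both the authors' own values, without naming the numerator, so signs are given as deposited. Of the 10 peaks 7 had a positive and 3 a negative change, and 46.9% of all peaks in the list were positive. The share of members with a peak was thus near that of all genes, and the counts by role are too small to compare. Head group genes held 3 peaks on 2 of 6 genes. The regulators had 0, and each other role had 1 gene with a peak.

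Pcyt1a, whose enzyme sets the pace of phosphatidylcholine synthesis, carried peaks of opposite sign at its ends. The first, chr16:32430921-32431219, begins at the first base of the RefSeq gene and had a change of -2.72 with a false discovery rate of 5.37e-05 and a fold enrichment of 5.64 in the authors' deposited table. The second, chr16:32472648-32472737, lies 2328 bases before the gene's 3′ end and had a change of 2.17 with a false discovery rate of 0.000302 and a fold enrichment of 1.5 in the authors' deposited table. In size these changes exceeded or equalled those of 98.7% and 97.2% of the listed peaks. Peaks of both signs were present on 37 genes, and Pcyt1a had the widest spread among them, 4.89 on the log2 scale. This spread rests on the second peak, which was among the weakest 6.15% of the list by enrichment. With a fold enrichment of at least 2 required, Pcyt1a kept only its negative peak. Input RNA of Pcyt1a, -0.13 ± 0.09 in the authors' deposited table, was within 80.7% to 103% of control by its interval.

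The bases of the first Pcyt1a peak are covered by RefSeq promoter windows and were searched on the gene's strand for 4 core motifs of m6A: GGAC, then GAAC, then AGAC, then AAAC. The first occurred 3 times in 299 bases and the last 1 time, 4 matches in all, and the median over 9631 windows of 300 bases was also 4. GGAC alone was in 72.2% of those windows, which lie mostly upstream of starts, with a median of 1 per window against the 3 in the peak. The 3 GGAC sites are shown with their flanks, since any m6A of this peak in that core would lie there, and capitals mark the core.
Pcyt1a site 1: gatccgagggGGACcggagcctgga
Pcyt1a site 2: tgctttgcgaGGACaaaggcgggct
Pcyt1a site 3: acagccaagaGGACtgtgacccagg

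They lie at chr16:32430998-32431022, chr16:32431055-32431079 and chr16:32431169-32431193 on the plus strand. The antibody also binds a related methylated adenosine next to the mRNA cap, and which of them gave the peak was not tested.

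The other peaks of positive change had midpoints between 87.0% and 98.9% of the gene span from the 5′ end, introns included. Elovl6 had 2, chr3:129628398-129633920 (2 blocks) and chr3:129634219-129634787, with changes of 0.60 and 1.10 and fold enrichments of 9.55 and 7.59 in the authors' deposited table. Pcyt2 had a peak at chr11:120610087-120610708, 25 bases from the gene's 3′ end, with a change of 0.94 and the highest enrichment among members, 10.8, in the authors' deposited table. The Lpcat3 peak, chr6:124704150-124704388, had a change of 0.76 (false discovery rate 0.0174) and a fold enrichment of 3.57 in the authors' deposited table, and 19 of its 239 bases lie within the span of Emg1. Acsl3 (chr1:78706337-78706845) and Fads1 (chr19:10195024-10195084) had changes of 0.44 and 0.99 on weak peaks, with enrichments of 1.55 and 1.22 in the authors' deposited table.

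The other 2 negative changes were on Fasn and Agpat1. Fasn had a peak of 3 blocks near its 5′ end, chr11:120822196-120824038, with a change of -0.63 and a fold enrichment of 1.28, and Agpat1 had a peak at chr17:34612590-34613064 with a change of -0.42 and a fold enrichment of 4.47 in the authors' deposited table. The Fasn peak was among the weakest 1.51% of the list by enrichment, and 6 of the 10 peaks were under the list's median of 5.525. Side by side, input and peak values were -1.08 and 0.44 for Acsl3, -0.25 with 0.60 and 1.10 for Elovl6, -0.64 and 0.76 for Lpcat3, and -0.18 and 0.94 for Pcyt2 in the authors' deposited table. They were 0.45 and -0.63 for Fasn, 0.28 and -0.42 for Agpat1, -0.02 and 0.99 for Fads1, and -0.13 with -2.72 and 2.17 for Pcyt1a in the authors' deposited table. The input values of Pcyt2, Fads1 and Pcyt1a did not pass. It is not stated whether the peak change was computed against the same input libraries, so no relation is drawn between the 2 values.

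**Figure D5:**
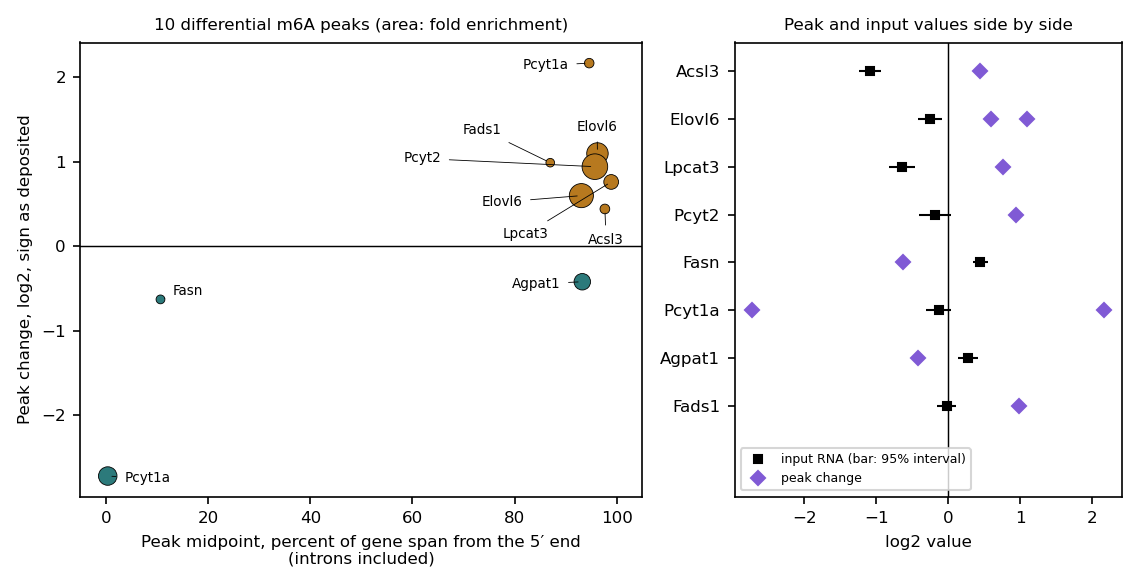
Left, change of each of the 10 peaks (log2, sign as deposited) against its midpoint as a percent of the gene span from the 5′ end, with point area proportional to fold enrichment. Right, the same changes (diamonds) beside the input log2 fold change of the gene (squares, bar 95% Wald interval); Pcyt1a holds both the lowest and the highest change, at -2.72 and 2.17.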

How the data were processed

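The submitters' processing notes name the build mm10 and, as tools, Trimmomatic, HISAT2 and DESeq2. Their versions, the read counter, its strand setting, the annotation and the peak caller: not given in the sources used here. The input table holds the authors' DESeq2 results: the mean normalized count is a signal, fold change and SE are log2 values, the Wald statistic is a score, and each p-value was deposited. The peak table holds a deposited ratio (fold enrichment), a deposited log2 change, and log10 p-values and false discovery rates, deposited and treated as a score. Values per library were not analysed here, so calls rest on the authors' adjusted p under 0.05, as planned for tables of results.

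Computed here were counts, medians, 95% Wald intervals (fold change and SE, normal), differences between genes with estimates taken as independent, RefSeq span overlaps and motif matches. Calls and centring were tested on simulated data. Members and lists were chosen with earlier results of these data known. Named were all members, and up to 4 genes with the smallest adjusted p of each other list. 3 list genes were matched by older symbols. Alternatives were other thresholds, filters, adjustments, centring and peak criteria. Scripts ran in Python 3.11.15 with pandas 2.3.3, numpy 2.4.6, matplotlib 3.10.9 and scipy 1.17.1. The full count over the neuroblast marker list is not reported here.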

Additional observations from a re-analysis of the deposited data

How the results depend on the processing

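No paired analysis was possible because the tables hold no values per library, and for the same reason no library was left out and no other count tool was run. The direction of every member's fold change and its call were kept for all 41 members with a minimum mean of 100, with adjustment over all genes and with centring on the median of 0.0077. At an adjusted p under 0.01 the falls of Scd1 and Elovl6 were lost, so elongation had 0 falls, and under 0.1 elongation had 1 rise (Elovl5). At an adjusted p under 0.01, 13 of 41 members fell and 2 rose, against 1408 and 1575 of all 12807 genes. Under 0.1 these were 15 and 3 members, against 2372 and 2593 genes. With Bonferroni adjustment 9 members fell and 1 rose, against 629 and 666 of all 12807 genes. By role, falls were then 1 in synthesis, 2 in desaturation, 0 in elongation and 2 in glycerolipid assembly, which had 0 rises. The falls in regulators (1), activation (1) and phospholipid remodelling (2) were kept. Calls that also required a change of at least 0.5 (log2) gave 8 falls (19.5%, against 5.75% of all tested genes) and 0 rises. By role these were 0 falls and 0 rises in synthesis, 2 falls in desaturation, 0 in elongation, and 2 falls with 0 rises in glycerolipid assembly. Regulators (1), activation (1) and phospholipid remodelling (2) again kept their falls. The alternatives without overlapping genes were added after seeing the data; without all members that overlap a protein-coding gene 1 rise was left, since Agpat1 overlaps Egfl8.

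Of the other lists, synthesis partners had 1 rise and phospholipid enzymes 5 rises at an adjusted p under 0.1, and fatty acid oxidation 2 falls and 1 rise under 0.01. Peaks with a fold enrichment of at least 2 numbered 6 on 5 genes, and those with a change of at least 1 numbered 3 on 2 genes. On the gene's strand only, the sterol regulatory element was found in 1 member (2.78%, against 0.623% of tested genes with a window). The CCAAT box was then found in 13 members (36.1% against 25.4%). The cause of these changes is the stricter or looser criterion itself.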
